A study of Homo sapiens with 17 samples.

Results

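The transcripts described here encode 5 AU-rich element binding proteins, ZFP36, ZFP36L1, ZFP36L2, ELAVL1 and KHSRP. They were taken by gene name as 5 of the 23368 genes in the count table. No cutoff on a measured value was applied, but earlier results of these data were known when they were chosen. The table came from acRIP-seq, which sequences the poly(A) RNA that an antibody against N4-acetylcytidine (ac4C) retains, in HEK293T cells, a line derived from human embryonic kidney. Cells of the genotype labelled WT were compared with cells of the genotype labelled siTARDBP (siTDP43 below), in which siRNA was directed at TARDBP, the gene of the RNA-binding protein TDP43. For each, input RNA, the anti-ac4C immunoprecipitate (IP) and a precipitate with rabbit control immunoglobulin G (IgG) were sequenced, with 3 libraries a group but only 2 of WT IgG. The comparison asked whether TDP43, which the study treats as an adaptor of the ac4C writer NAT10, affects which mRNAs are pulled down.

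No control siRNA is named in the WT labels, and transfection, loss of TDP43 and any batch cannot be told apart in a comparison of genotypes. No label ties a library to a culture of its own, so p-values measure only the spread between these libraries, which may be technical. Total counts per library were lowest in IgG, at 3013989 to 3436811 in siTDP43 and 9022250 to 9466855 in WT. The IP libraries held 8610070 to 15736165 counts in siTDP43 and 19615316 to 21066215 in WT, and the inputs 24542434 to 31030950 and 27718784 to 36583436. Of the 8 HEK293T markers, VIM averaged 787 and 262 CPM (counts per unit of library size, the usual scale of RNA-seq) in WT and siTDP43 input, whereas PAX2 and LHX1 were below 1 CPM on average in both. The summed level of 8 markers of other cell types was 0.413 to 21.8 CPM over all libraries, highest in siTDP43 IgG, where GFAP averaged 18.4 CPM. In WT and siTDP43 input DES averaged 3.09 and 0.461 CPM, and GFAP 1.46 and 1.24 CPM. ALB, INS, CD3E and LYZ averaged at most 0.195 CPM in either input, and PTPRC and PECAM1 had no count in any input library.

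AU-rich elements are runs of adenosine and uridine in the 3′ untranslated regions (3′ UTRs) of short-lived mRNAs, among them cytokine, proto-oncogene and cell cycle transcripts. ZFP36 (tristetraprolin) and its relatives ZFP36L1 and ZFP36L2 bind these runs through tandem CCCH zinc fingers and recruit the CCR4-NOT deadenylase, which starts decay of the mRNA. ELAVL1 (HuR) binds similar runs through RNA recognition motifs and is known for stabilising its targets. KHSRP (KSRP) binds through KH domains, promotes decay and also takes part in microRNA processing.

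The mRNAs of several of these proteins carry such elements themselves, so the stretches of hg19 that hold the AU-rich nonamer TTATTTATT are shown, with the nonamer in capitals and 10 flanking bases on each side. The nonamer lies at chr19:39899846-39899854 (plus strand) in ZFP36, chr14:69254804-69254812 (minus strand) in ZFP36L1, chr2:43450597-43450605 (minus strand) in ZFP36L2 and chr19:8026722-8026730 (minus strand) in ELAVL1. Each of the 4 sites is in the 3′ UTR of the canonical transcript of GENCODE, and each sequence reads 5′ to 3′ along the mRNA, with T for U.
ZFP36: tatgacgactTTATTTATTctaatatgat
ZFP36L1: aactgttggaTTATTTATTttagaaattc
ZFP36L2: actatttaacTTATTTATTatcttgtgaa
ELAVL1: atttatgtatTTATTTATTgaagtgtgaa
The nonamer contains the pentamer ATTTA, and only the sense strand of the exons was searched. The exons of KHSRP held no nonamer. Over 23346 genes with exon sequence, 6.68% held at least 1 nonamer, and 3.43 to 13.6% did among genes within 20% of a member's exon length. The pentamer occurred 5 times in ZFP36, 9 times in ZFP36L1, 5 times in ZFP36L2, 13 times in ELAVL1 and once in KHSRP. At least 1 was in 70.0% of all genes and in 65.6 to 94.5% of those within 20% of a member's exon length. The motif TCCCAGCT, which the study names for its ac4C peaks, was in none of the 5 genes. It was in 16.7% of all genes and in 11.1 to 30.4% of those of like length. The UG-rich motif TGTGCG, of the kind TDP43 binds, occurred 2 times in the 3′ UTR of ELAVL1 and 2 times in ZFP36L1 outside the canonical transcript. It was in 25.9% of all genes, 40.4% of those within 20% of the exon length of ELAVL1 and 34.8% for ZFP36L1. These matches are letters in a window and were not tested as binding sites.

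In the annotation of the count table ZFP36 lies on chromosome 19 (39897487 to 39900045), ZFP36L1 on chromosome 14 (69254372 to 69262960) and ZFP36L2 on chromosome 2 (43449541 to 43453745). ELAVL1 (8023457 to 8070529) and KHSRP (6413119 to 6424822) are also on chromosome 19. The exons of ZFP36L2 and ELAVL1 overlap antisense exons of GENCODE by 826 and 528 bases, and no strand setting is stated for the counting, so reads of both strands cannot be told apart there. KHSRP hosts the microRNA gene MIR3940 on the same strand.

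The knockdown was checked first. TARDBP had 149.7, 157 and 151 CPM (TMM-scaled) in the 3 WT input libraries and 98.6, 102 and 106 CPM in the 3 siTDP43 input libraries. The groups did not overlap, and the log2 change was -0.57 (SE 0.045, edgeR adjusted p 6.55e-13). TARDBP was thus 1.49-fold lower, and still measured in every library.

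On a scale that corrects for exon length (FPKM, which divides CPM by kilobases of exon), ELAVL1 had the highest mean level of the 5 in WT input at 10.1 ± 0.467 (SD, n = 3), followed by KHSRP at 8.39 ± 0.649. ZFP36 at 4.63 ± 0.052 and ZFP36L1 at 4.53 ± 0.321 differed by less than the SD of ZFP36L1, and ZFP36L2 was lowest at 2.16 ± 0.470. The siTDP43 inputs gave 5.62 for ELAVL1, 3.91 for KHSRP, 3.16 for ZFP36L1, 2.26 for ZFP36 and 0.874 for ZFP36L2 as mean FPKM.

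All 5 transcripts were less abundant in siTDP43 input than in WT input. The decay factors fell along with the stabiliser, from 1.43-fold for ZFP36L1 to 2.45-fold for ZFP36L2. The order among them is not firm, since without WT input replicate 1 ZFP36L2 was at -1.11 (log2) and KHSRP at -1.15. In these bulk libraries fewer cells with a transcript and less of it per cell cannot be told apart. Of 14036 genes tested, 40.6% were lower and 38.6% higher at an edgeR adjusted p under 0.05. Being called in this comparison was thus common, and the count of 5 of 5 lower is given without a test.

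ZFP36 had 8.13, 8.14 and 7.98 CPM in the WT input libraries and 3.72, 3.17 and 4.96 CPM in siTDP43 input. Every siTDP43 library lay below every WT library, with a log2 change of -1.02 (SE 0.162, edgeR adjusted p 1.3e-06). ZFP36L1 had 17.7, 17.4 and 19.8 CPM in WT and 11.7, 13.3 and 13.3 CPM in siTDP43. Again the groups did not overlap, at -0.52 (SE 0.0998, edgeR adjusted p 2.5e-05). ZFP36L2 had 9.95, 7.17 and 6.75 CPM in WT and 2.93, 3.48 and 3.26 CPM in siTDP43. WT replicate 1 stood above its 2 fellows, and the log2 change was -1.30 (SE 0.174, edgeR adjusted p 6.98e-08).

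ELAVL1 had 58.1, 63.7 and 61.5 CPM in WT input and 35.6, 32.7 and 33.8 CPM in siTDP43 input. The libraries of each group lay close together, and the log2 change was -0.84 (SE 0.0622, edgeR adjusted p 1.67e-13). For KHSRP the WT inputs held 25.1, 27.5 and 29.3 CPM and the siTDP43 inputs 13.7, 10.7 and 13.7 CPM. The groups were apart by more than their spread, with a log2 change of -1.09 (SE 0.0969, edgeR adjusted p 1.12e-11). Each of the 5 decreases kept its direction and its call in all 16 alternative fits, among them each in which 1 input library was left out.

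Interferon-stimulated genes moved with the same contrast. All 12 of 12 tested of 15 listed fell, their summed level was 1710.0 to 1723 CPM in WT input and 94.0 to 99.1 CPM in siTDP43 input, and their median log2 change was -6.89. CCL5 and CXCL10, chemokine genes, had no count in any siTDP43 input library and were at least 1694-fold and at least 459-fold lower there, against a floor of 3 counts in each library. The part of this difference in the levels of the 5 transcripts was not tested.

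**Figure D1:**
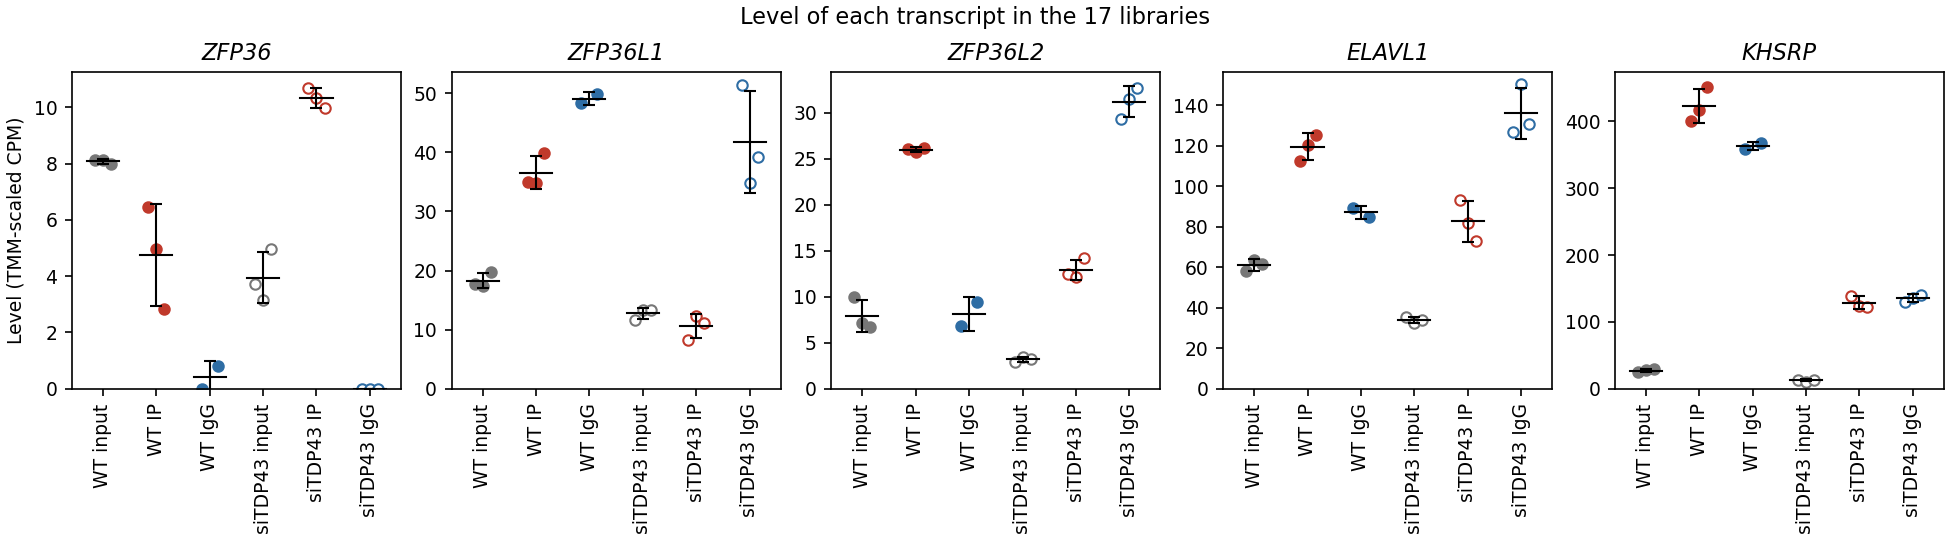
Level of each transcript in TMM-scaled CPM (y axis, starting at 0) in the 6 groups (x axis). Points are libraries, filled for WT and open for siTDP43, and lines and bars are the mean ± SD. In the inputs each siTDP43 library lies below each WT library for all 5, and KHSRP is far above input in both IP and IgG.

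Pull-down with the control IgG is the background of this assay, so each transcript was compared in IP, IgG and input. The study pre-amplified the cDNA and built each library from a set amount of it, and levels here were scaled by TMM. Contrasts between IP, IgG and input thus compare shares of libraries, and the amount of RNA retained cannot be read from them. KHSRP was enriched about as much by control IgG as by the anti-ac4C antibody, whereas ZFP36 had 0 to 8 counts in the IgG libraries. In WT 4 of the 5 transcripts were higher in IP than in input and 1, ZFP36, was lower, where 42.3% of 14751 genes were higher and 42.1% lower. Against IgG 4 were higher and 1, ZFP36L1, was lower in IP, with 47.1% of genes higher and 34% lower, but 5148 higher and 6794 lower, in place of 6948 and 5009, once a trend with GC content was removed from each library. WT IgG itself was higher than input for 3, ZFP36L1, ELAVL1 and KHSRP, and lower for ZFP36, beside 35.5% and 47.8% of genes, or 6444 higher and 5714 lower without the GC trend in place of 5239 and 7054.

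ZFP36 had 6.45, 4.98 and 2.84 CPM in WT IP, and 0 and 0.823 CPM in the 2 WT IgG libraries, which is 0 and 8 counts. The IP libraries were all below WT input and all above IgG. The log2 change was -0.75 against input (SE 0.245, edgeR adjusted p 0.00706) and 3.54 against IgG (SE 0.564, edgeR adjusted p 4.72e-06). The first lost its call without WT IP replicate 3 (-0.48, edgeR adjusted p 0.0725). The second rested on few IgG counts and was 2.51 without WT IgG replicate 1 and 9.99 without replicate 2, when the remaining IgG library held no count and the fitted value is no bound. Likewise the log2 change of IgG over input, -4.29 (SE 0.527), became -3.27 and -10.75 without one or the other.

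ZFP36L1 had 35.0, 34.9 and 39.8 CPM in WT IP and 48.3 and 49.9 CPM in WT IgG. Both kinds of pull-down were above every input library and IgG was the higher of them. IP was 2.01-fold over input (edgeR adjusted p 2.92e-10) but at a log2 change of -0.45 against IgG (SE 0.102, edgeR adjusted p 0.000393), and IgG was at 1.45 over input (log2, SE 0.104).

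ZFP36L2 was the member with the clearest excess of IP over both controls in WT. It had 26.1, 25.7 and 26.2 CPM in WT IP, against 6.79 and 9.47 CPM in WT IgG and the input values given above. IP did not overlap either control, while IgG and input overlapped each other. The log2 change was 1.72 over input (SE 0.138, edgeR adjusted p 3.67e-11) and 1.66 over IgG (SE 0.185, edgeR adjusted p 1.89e-08), and that of IgG over input was 0.06 (SE 0.193, edgeR adjusted p 0.776).

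ELAVL1 had 112, 121 and 126 CPM in WT IP and 89.6 and 85.0 CPM in WT IgG. The groups stood in the order IP, IgG, input without overlap. IP was at 0.98 over input (log2, SE 0.0627, edgeR adjusted p 5.3e-13) and at 0.43 over IgG (SE 0.0744, edgeR adjusted p 1.29e-05), and IgG at 0.54 over input (SE 0.0742). The excess over IgG was 0.089 (edgeR adjusted p 0.251) once the GC trend was removed. That step also took the median of all genes from 0.29 to -0.19, and ELAVL1 lay above the median in both fits. ELAVL1, with 46.3% GC in its exons, was the poorest in GC of the 5.

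KHSRP had 401, 417 and 451 CPM in WT IP and 359 and 368 CPM in WT IgG. Both were more than 10 times the input level, by 15.6-fold in IP and 13.6-fold in IgG, log2 3.96 (SE 0.0652, edgeR adjusted p 2.16e-24) and 3.76 (SE 0.0689, edgeR adjusted p 7.32e-23). Between them IP was higher by 0.20 (log2, SE 0.0639, edgeR adjusted p 0.00664). That small excess missed the threshold without WT IP replicate 3 (0.14, edgeR adjusted p 0.0515) and turned to -0.65 (edgeR adjusted p 2.22e-09) when the GC trend was removed. The median of all genes was 0.29 in the main fit and -0.19 in that last fit, and KHSRP lay below it in both. KHSRP, at 57.6% GC, was the richest in GC of the 5.

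In siTDP43 the transcripts of ZFP36L2 and ELAVL1, which in WT were higher in IP than in IgG, were lower in IP than in IgG. Against input, IP was higher for 4 and lower for 0 of the 5, beside 37.3% and 41.5% of 12746 genes. Against IgG, however, IP was higher for 1 (ZFP36) and lower for 3 (ZFP36L1, ZFP36L2 and ELAVL1), beside 44.9% and 28.5% of genes, which without the GC trend were 3793 higher and 5907 lower in place of 5725 and 3637. IgG was higher than input for 4 and lower for 1 (ZFP36), beside 33% and 50.3% of genes, a split of 4209 to 6406 that became 3222 to 7659 with scaling by total count, 3146 to 7670 with limma on FPKM and 5624 to 4670 without the GC trend.

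ZFP36 had 10.7, 10.3 and 9.97 CPM in siTDP43 IP and no count in any of the 3 siTDP43 IgG libraries. A count of 0 at their depth allows up to 1.13 CPM on average, 3 counts a library. The transcript was thus at least 9.16-fold higher in IP than in IgG, and input was at least 3.50-fold above IgG. IP was above every siTDP43 input library, at a log2 change of 1.54 (SE 0.275, edgeR adjusted p 3.81e-05).

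ZFP36L1 had 8.32, 12.4 and 11.2 CPM in siTDP43 IP but 51.4, 34.8 and 39.1 CPM in siTDP43 IgG. IP overlapped input and lay far below IgG. The log2 change was -0.12 against input (SE 0.193, edgeR adjusted p 0.575) and -2.06 against IgG (SE 0.208, edgeR adjusted p 1.57e-08), and IgG was at 1.94 over input (SE 0.196).

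ZFP36L2 had 12.5, 12.2 and 14.2 CPM in siTDP43 IP and 29.4, 31.6 and 32.7 CPM in siTDP43 IgG. IgG, which in WT overlapped input, was here the highest of all 6 groups. IP was at 2.16 over input (log2, SE 0.209, edgeR adjusted p 3.86e-09) and at -1.35 against IgG (SE 0.21, edgeR adjusted p 6.74e-06), and IgG at 3.50 over input (SE 0.221).

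ELAVL1 had 93.2, 81.8 and 73.2 CPM in siTDP43 IP and 127, 151 and 131 CPM in siTDP43 IgG. No IP library reached the lowest IgG library. IP was at 1.44 over input (log2, SE 0.1, edgeR adjusted p 1.49e-11) and at -0.79 against IgG (SE 0.105, edgeR adjusted p 9.31e-07), and IgG at 2.22 over input (SE 0.107).

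KHSRP had 139.5, 124 and 123 CPM in siTDP43 IP and 129, 136 and 141 CPM in siTDP43 IgG. The groups overlapped, and their log2 difference of -0.14 (SE 0.102, edgeR adjusted p 0.208) did not pass the test. Both stood far above input, at 3.49 in IP (SE 0.106, edgeR adjusted p 5.9e-18) and 3.63 in IgG (SE 0.113, edgeR adjusted p 5.63e-18).

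**Figure D2:**
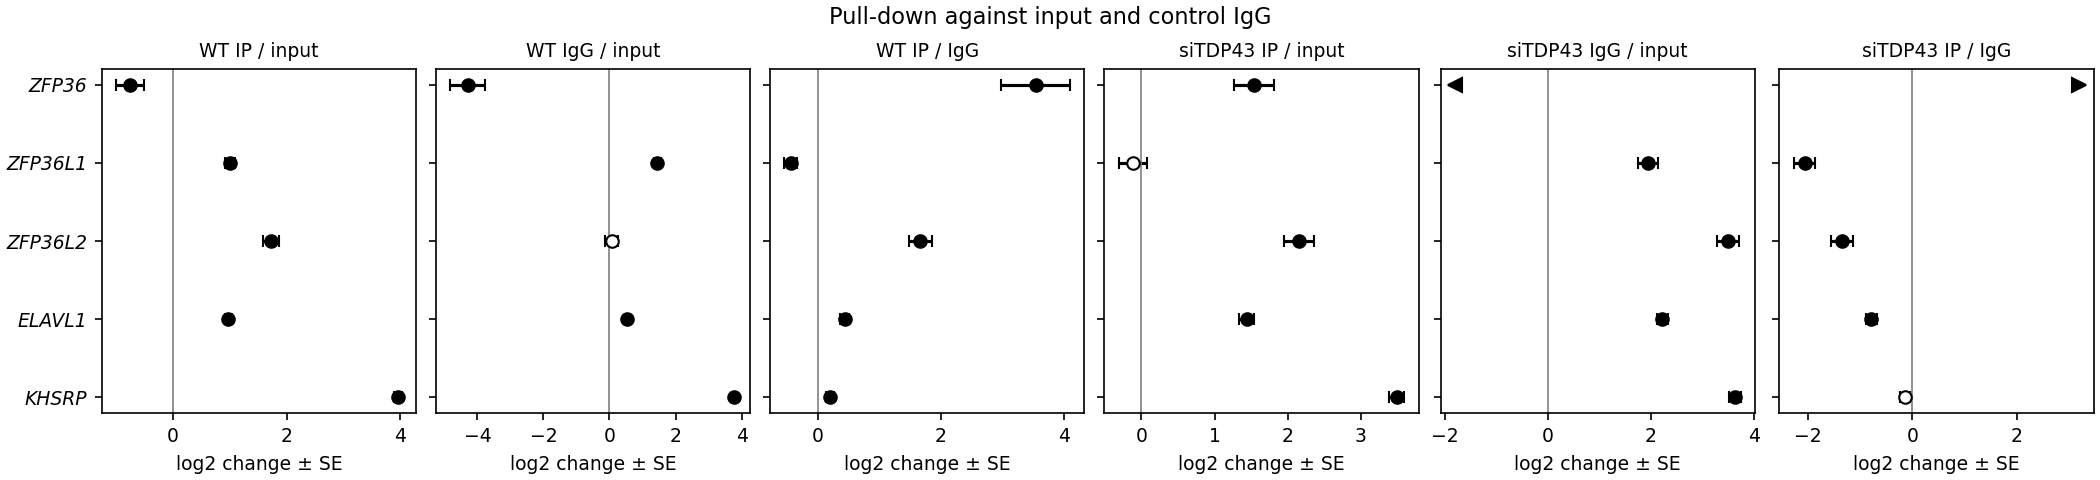
Log2 change ± SE (x axis, a scale of its own in each panel) of the 5 transcripts between IP, IgG and input, for WT in the first 3 panels and siTDP43 in the others. Filled points passed an edgeR adjusted p of 0.05, and triangles for ZFP36 are bounds, since siTDP43 IgG held no count. KHSRP is near 0 only in the IP over IgG panels, and ZFP36 is the only one below 0 in the IgG over input panels.

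By the rule that a transcript counts as ac4C(+) when its IP level exceeds input by over 2-fold and IgG by over 2-fold (edgeR adjusted p under 0.05 for each), ZFP36L2 was ac4C(+) in WT and ZFP36 in siTDP43. That is 1 of 5 in each genotype, beside 15.6% of genes tested in WT and 10.3% in siTDP43. These are the fold thresholds by which the study lists ac4C(+) transcripts. The study takes its folds on FPKM + 1, whereas edgeR folds of counts and another test were used here. The shares are therefore not comparable with the study's lists. When more than 5-fold over IgG was required, the limit that the study sets for its highly acetylated class, ZFP36L2 did not pass and ZFP36 still did. ZFP36L2 also lost the call when the GC trend was removed. That step took the median of all genes in WT IP over IgG from 0.29 to -0.19 (log2). The lowest value of ZFP36L2 over IgG in WT in any alternative was 0.93. ZFP36 lost the call with limma on log2(FPKM + 1), which is the scale of the study's folds.

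Whether enrichment differed between the genotypes was tested by an interaction term over all 17 libraries. Over input, 2 of the 5 had a higher enrichment in siTDP43 and 2 a lower one, beside 31.5% and 36.3% of 15165 genes, and with limma on FPKM those 4770 and 5511 genes became 3654 and 7076. ZFP36 enrichment over input was higher by 2.15 (log2, SE 0.386, edgeR adjusted p 9.19e-06), going from below input in WT to above it in siTDP43. ZFP36L1 went the other way, by -1.28 (SE 0.2, edgeR adjusted p 7.48e-07), from above input to overlapping it. Both kept their direction and call in all 27 alternatives.

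For KHSRP the change over input was -0.62 (SE 0.117, edgeR adjusted p 1.76e-05), and it shrank to -0.052 (edgeR adjusted p 0.713) without the GC trend. ELAVL1 passed narrowly at 0.32 (SE 0.122, edgeR adjusted p 0.0205), but its value was 0.019 with scaling by total count and -0.040 with limma on FPKM. It also missed the threshold without WT input replicate 2 (0.27), WT IP replicate 1 (0.27), siTDP43 input replicate 2 (0.29) or siTDP43 IP replicate 1 (0.22). ZFP36L2 did not pass at 0.29 (SE 0.244, edgeR adjusted p 0.302). Its sign turned with total count scaling (-0.0068) and with limma on FPKM (-0.35), and it passed at 0.78 (edgeR adjusted p 0.00484) without the GC trend.

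Over IgG, enrichment was lower in siTDP43 for 4 of the 5, beside 25.9% of genes, and higher at the threshold for 1, ZFP36, beside 34.9%. Those 3923 lower and 5293 higher genes became 5432 and 4994 with the DESeq2 Wald test. The largest decrease was that of ZFP36L2, -2.96 (log2, SE 0.281, edgeR adjusted p 1.05e-11), or 7.76-fold. In that transcript IP enrichment over input did not pass the test between genotypes and the IgG level was 8.13 ± 1.89 CPM in WT (SD, n = 2) and 31.2 ± 1.71 CPM in siTDP43 (n = 3). ZFP36L1 followed at -1.57 (SE 0.225, edgeR adjusted p 1.23e-07) and ELAVL1 at -1.16 (SE 0.137, edgeR adjusted p 1.89e-09), and these 3 kept direction and call in all 27 alternatives.

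KHSRP changed by -0.29 over IgG (SE 0.121, edgeR adjusted p 0.0377). With the replicate number as a block it was -0.25 (edgeR adjusted p 0.0655), and without the GC trend -0.018. Leaving out WT input replicate 2, WT IP replicate 3, WT IgG replicate 1 or 2, siTDP43 IP replicate 2 or 3, or siTDP43 IgG replicate 2 or 3 also ended its call, at -0.31 to -0.24. The fitted change of ZFP36 was 7.06 (SE 2.99, edgeR adjusted p 0.0403), but it rests on IgG groups with 0 to 8 counts. With the floor in siTDP43 IgG and the WT ratio taken as measured, it is only at least -0.33. The WT ratio itself rests on few IgG counts, so even this is no firm bound. The direction of ZFP36 over IgG cannot be read from these libraries.

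The scale of these contrasts depended on the normalization. The median log2 change of all genes went from -0.09 to -0.43 for siTDP43 IP over input, from -0.58 to -1.13 for siTDP43 IgG over input, from 0.33 to 0.54 for siTDP43 IP over IgG and from -0.19 to -0.48 for the change over input, when TMM was replaced by total counts. In WT the medians went from 0.01 to 0.12 for IP over input and from 0.29 to 0.42 for IP over IgG. For the change over IgG the median was 0.24 with TMM, 0.03 with DESeq2 size factors and -0.13 with the DESeq2 Wald test. Relative to the TMM median, the decreases of ZFP36L2, ZFP36L1 and ELAVL1 over IgG were larger than the values given.

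**Figure D3:**
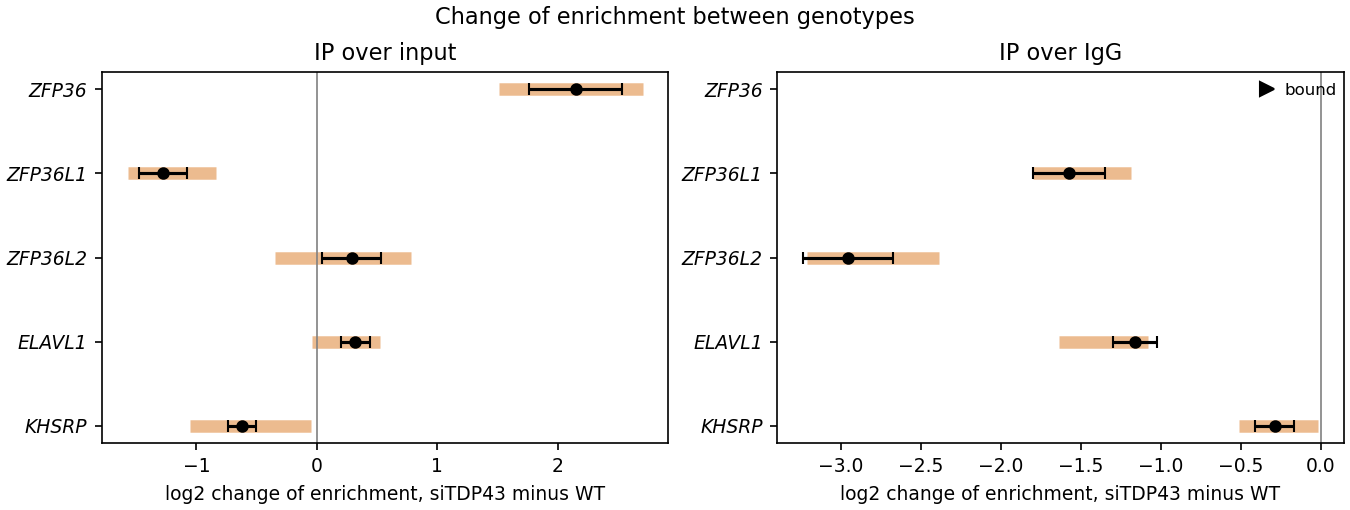
Change of enrichment, siTDP43 minus WT (x axis, log2), over input and over IgG. Points and black bars are the estimate ± SE, and orange bands span the alternative fits. The triangle is the bound for ZFP36 over IgG if its WT ratio is taken as measured. Over input the bands of ZFP36L2 and ELAVL1 cross 0 and that of KHSRP ends at -0.052, and over IgG that of KHSRP ends at -0.018 and no band is drawn for ZFP36.

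Across the 6 groups the 5 transcripts did not share 1 pattern. ZFP36 was highest in siTDP43 IP, ZFP36L1 in WT IgG, ZFP36L2 and ELAVL1 in siTDP43 IgG and KHSRP in WT IP. The top group of ZFP36L1 overlapped the next, siTDP43 IgG, and that overlapped WT IP, whereas the top groups of the other 4 did not overlap the next. Over the 17 libraries, which fall into these 6 groups and share their depth and pull-down, log2 levels of ZFP36L2 and ELAVL1 had a Pearson r of 0.94 and those of ELAVL1 and KHSRP 0.85. ZFP36 correlated negatively with the other 4, at -0.76 with ZFP36L1. Among 10140 genes with a mean of at least 100 counts, the patterns most like that of ZFP36 were those of CCNG2 (r 0.965) and ZNF789 (0.962), and for ZFP36L1 those of PDZD7 (0.957) and PTPRS (0.952). For ZFP36L2 they were PRKACA (0.979) and ADRA2C (0.970), for ELAVL1 ARHGDIG (0.981) and PAK4 (0.978), and for KHSRP CKAP4 and FBRSL1 (both 0.995). These correlations describe 6 groups of libraries and carry no test, and by Spearman's rho none of these genes was among the 2 nearest.

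The other genes of the pathway were counted from lists, beside the all-gene median of -0.05 (log2) in the inputs. Of 14 other AU-rich element binding proteins tested, 6 rose and 6 fell in siTDP43 input, with a median of 0.08, against 0 and 5 among the members. RC3H1 (Roquin-1, which promotes mRNA decay) rose by 1.85 and CELF2 by 1.76, whereas YBX1, a cold shock domain protein, fell by 1.66 and HNRNPAB by 1.20 on the log2 scale. Adjusted p was at most 7.19e-12 for these 4 in the edgeR fit.

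The decay machinery that the ZFP36 family recruits moved both ways. Of 17 deadenylase genes, 11 rose and 3 fell, with a median of 0.52. TOB1, which links CCR4-NOT to its targets, rose by 2.41 and PAN3 by 1.48, while the CCR4-NOT subunits CNOT3 and CNOT11 (C2orf29 in the table) fell by 1.86 and 1.91 on the log2 scale. Of 16 exosome and Ski complex genes 10 rose and 3 fell, with a median of 0.85, the largest changes being WDR61 at 1.34 and TTC37 at 1.30 among the rises and EXOSC8 at -1.34 among the falls. Of 16 decapping and 5′ decay genes 4 rose and 8 fell, with a median of -0.17. Of these, the helicase gene DDX6 was at 1.22 and the decapping enzyme gene DCP2 at -0.73.

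Kinases, phosphatases, 14-3-3 proteins and partners known to act on the members moved both ways, with 10 higher and 12 lower of 23 and a median of -0.24. MAPK14 (p38α), upstream of the kinase that phosphorylates ZFP36, fell by 1.39 and the 14-3-3 gene YWHAH by 2.44 on the log2 scale, while SET was at 1.84. Transcripts with classical AU-rich elements, which include known targets of the members, showed 8 higher and 22 lower of 30, with a median of -1.53. ATF3, a stress-induced transcription factor gene, averaged 857 ± 10.6 CPM in WT and 59.0 ± 1.08 CPM in siTDP43 input (SD, n = 3 each), a log2 change of -3.85 (SE 0.0421, edgeR adjusted p 1.37e-34). PLK3 fell by 2.73 on the log2 scale, whereas the cyclin genes CCNB1 and CCND1 were at 1.60 and 1.13. Interferon-stimulated genes fell in the same contrast, as given above, and their part in these counts was not tested.

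**Figure D4:**
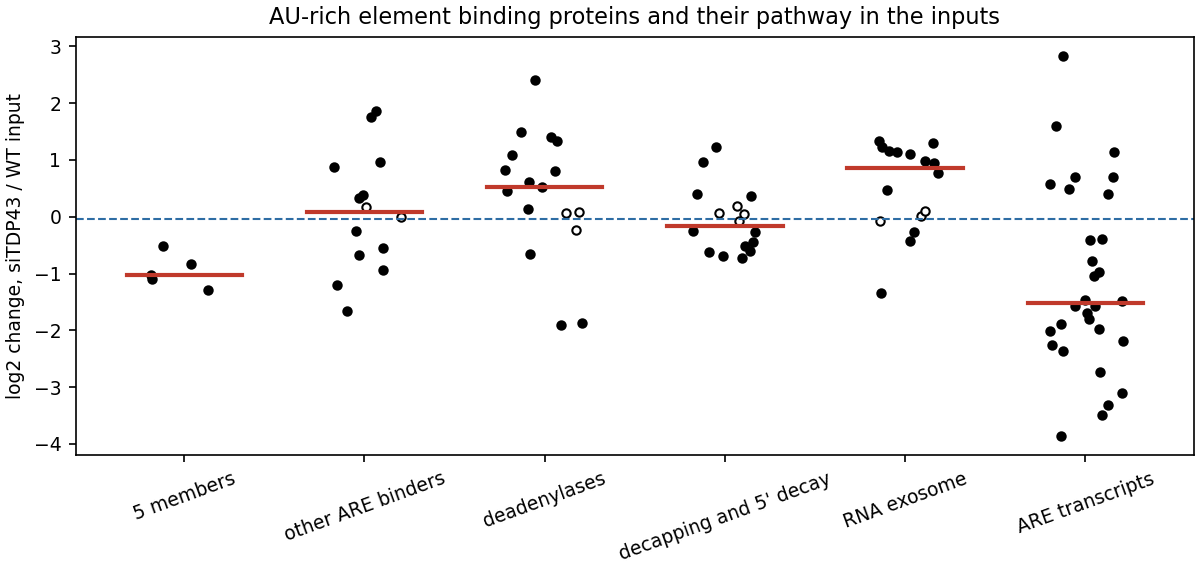
Log2 change of each gene, siTDP43 over WT input (y axis), for the 5 members and 5 of the lists (x axis). Filled points passed an edgeR adjusted p of 0.05, red lines are list medians and the dashed line is the median of all genes tested, -0.05. All 5 members lie below it, at -1.30 to -0.52, as do most transcripts with AU-rich elements, whereas most deadenylase and exosome genes lie above it.

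In WT IP against IgG, where the median of all genes was 0.29, the lists were mixed. Other AU-rich element binding proteins had 6 higher and 6 lower of 14, deadenylases 7 and 8 of 17, decapping and 5′ decay genes 4 and 8 of 16, exosome genes 5 and 8 of 16, the kinases and partners 7 and 12 of 23, transcripts with AU-rich elements 10 and 10 of 31 and interferon-stimulated genes 6 and 5 of 13. EGR1, an immediate early gene, had 213 to 232 counts in WT IP and none in WT IgG, at least 31.5-fold. DCP2, which fell in the siTDP43 inputs, was at -3.52 in WT IP against IgG. The ac4C(+) rule was met in WT by 15.6% of all genes tested. By list, in the same order, it was met by HNRNPD (AUF1, 1 of 14), 0 of 17 and PATL1 (1 of 16). Then came EXOSC4 and EXOSC6 (2 of 16), MAPKAPK2, AKT2 and PRKCD (3 of 23), EGR1 and VEGFA (2 of 31) and MX1 (1 of 13). In siTDP43 the share of all genes was 10.3%. The lists gave 0 of 14, CNOT6L and C2orf29 (2 of 17), 0 of 16 and EXOSC6 (1 of 16). The others were PRKCD and SFN (2 of 23), TNFAIP3 and NOTCH1 (2 of 25) and 0 of 6 interferon-stimulated genes.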

How the data were processed

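Raw counts of 17 libraries, with an exon length for each gene, were deposited as 1 table, all columns of which were mapped to samples. The authors made the counts from SMART-seq2 libraries. Trim Galore 0.6.7, STAR 2.7.10a and featureCounts 2.0.2 are named in the submitters' processing notes. The notes name mm10 and the methods hg19 for HEK293T, and 99.6% of 19556 named genes overlapped their GRCh37 position. Read pair handling is not given in the sources used here. Of counts from 1 to 20, 81.3 to 95.9% were even, so mates appear to be counted singly, and without molecular identifiers floors cover counting error only. Chi-square divided by its degrees of freedom was at least 3.26 for every replicate pair, so no library repeated another.

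Members, lists and tests were chosen with earlier results of these data known. The test was that of edgeR 4.0.16 under R 4.3.3 (quasi-likelihood F test, two-sided, TMM, filterByExpr with a minimum count of 10, Benjamini-Hochberg over all genes tested). All 5 members passed this filter in every fit. CPM and FPKM were scaled by TMM over the 17 libraries. A group with no count was set at 3 counts a library for folds. For ac4C(+), 2-fold over input and over IgG, as in the study's lists, was tested on counts, whereas the study's folds are of FPKM + 1. More than 5-fold over IgG, which the study gives for its highly acetylated class and in its methods, with DESeq2, was an alternative. Alternatives were DESeq2 1.42.0, its size factors, total count scaling, no filter, a minimum mean of 50 counts, other libraries in the fit, a replicate block, halved counts, a GC trend removed (lowess span 0.3), limma 3.58.1 on log2(FPKM + 1) and each library left out. Named genes were the members, TARDBP, the 2 nearest by Pearson r and, from each list in the inputs and in WT IP against IgG, some of the 2 highest and 2 lowest calls whose groups did not overlap and whose mean count was 100 or more.

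Lists beyond those in the report were markers. In the inputs 2 of 7 HEK293T markers tested rose and 5 fell, and of the other cell types' 2 tested markers 0 rose and 1 fell. The tests were also run on simulated counts, in which far fewer genes changed than were called here. That run does not show how often the tests err on these data. Exon sequence came from GRCh37.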

Additional observations from a re-analysis of the deposited data

Results flagged for a closer look

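The test of the difference in enrichment between siTDP43 and WT passed its threshold in 9 results. Over input they were ZFP36 (2.15, log2), ZFP36L1 (-1.28), ELAVL1 (0.32) and KHSRP (-0.62). Over IgG they were ZFP36L1 (-1.57), ZFP36L2 (-2.96), ELAVL1 (-1.16) and KHSRP (-0.29), and ZFP36 with a fitted 7.06. That last value does not show a difference, since siTDP43 IgG held no count of ZFP36 and the call was lost in several alternatives. With the WT ratio taken as measured the bound is only at least -0.33, and that ratio rests on few WT IgG counts. Both genotypes' own values are side by side in the report. No group had the 4 libraries that a test for a single outlying library needs.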

How the results depend on the processing

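The 5 decreases in input kept direction and call in every alternative run. With scaling by total count, siTDP43 IP over input for ZFP36L1 was -0.46 (log2, edgeR adjusted p 0.0402) and siTDP43 IP over IgG for KHSRP 0.065, and the change over input was -0.0068 for ZFP36L2 and 0.019 for ELAVL1. With limma on FPKM these last 3 were 0.063, -0.35 and -0.040, and 0 of the members were ac4C(+) in siTDP43. Without the GC trend, WT IP over IgG was 0.089 for ELAVL1 and -0.65 for KHSRP, WT IgG over input 0.52 for ZFP36L2, siTDP43 IP over IgG -0.57 for KHSRP, the change over input 0.78 for ZFP36L2 and -0.052 for KHSRP, the change over IgG -0.018 for KHSRP, and 0 members were ac4C(+) in WT, as also with 5-fold over IgG. All genes lower in siTDP43 IP against IgG went from 3637 to 5907 without the GC trend. The median of all genes in WT IP over IgG went from 0.29 to -0.19. With DESeq2 size factors the change over input of ELAVL1 was 0.26. The change over IgG of ZFP36 lost its call with those size factors (6.92), with only the libraries of its 4 groups (6.38) and with halved counts (6.07). By Spearman's rho 0 of the 2 genes nearest to each member by Pearson r were the nearest 2.

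Leaving out a library gave, for ZFP36, -1.03 to -0.48 in WT IP over input and 1.12 to 8.12 in the change over IgG, whose lowest came without WT IgG replicate 2. Without that library, or without any siTDP43 IgG library, the call was lost. For ZFP36L2 in WT IgG over input the values were -0.20 to 0.28, below 0 without WT input replicate 2 or 3 or WT IgG replicate 2. For ZFP36L1 in siTDP43 IP over input they were -0.26 to 0.058, above 0 without siTDP43 IP replicate 1. KHSRP ranged from 0.14 to 0.23 in WT IP over IgG and from -0.35 to -0.24 in the change over IgG, and ELAVL1 from 0.22 to 0.40 in the change over input. With 1 WT IgG library left, its spread was taken to be that of the other groups. The causes were not tested.

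Residuals of libraries with the same replicate number correlated at -0.04 to 0.10, and those with different numbers at -0.10 to 0.07. Within WT these ranges were -0.01 to 0.10 and -0.10 to 0.07, and within siTDP43 -0.01 to 0.10 and -0.09 to 0.03. The ranges overlapped, which does not settle whether libraries of the same number share material, and the numbers were not taken as pairs in the main fits. With a replicate block, the change over IgG of KHSRP was -0.25 (edgeR adjusted p 0.0655), and no other member's call changed. Depth limits ZFP36 in IgG most.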

Other observations

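Other genes of the decay pathway also differed in their change of enrichment over IgG, siTDP43 minus WT, where 34.9% of genes were higher and 25.9% lower at an edgeR adjusted p under 0.05 and the median of all genes was 0.24 (log2). With the DESeq2 Wald test that split of 5293 to 3923 became 4994 to 5432, with a median of -0.13. Of 17 deadenylase genes 13 were higher and 2 lower, with a median of 1.30, while 4 of the 5 members were lower and the direction of ZFP36 could not be read. Other AU-rich element binding proteins had 7 higher and 6 lower of 14 (median 0.10), decapping and 5′ decay genes 8 and 5 of 16 (0.33), exosome genes 5 and 5 of 16 (-0.01), the kinases and partners 12 and 7 of 23 (0.39), and transcripts with AU-rich elements 10 and 5 of 32 (0.62). In siTDP43 IgG against input the deadenylase list had 3 higher and 13 lower of 17, with a median of -1.66, and 4 of the 5 members were higher. All genes had 33% higher and 50.3% lower there, with a median of -0.58, and their split of 4209 to 6406 ran from 3146 to 7670 with limma on FPKM to 5624 to 4670 without the GC trend.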
